A study of Homo sapiens with 18 samples.

Results

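Transcripts for 10 Golgi proteins were followed in HEK293doxERN2 cells, a human HEK293 embryonic kidney line that carries a doxycycline-inducible FLAG-ERN2 transgene. They were chosen by name and by where the protein is made, with earlier results of these data known. They were 10 of the 25435 genes in the count table. TGOLN2 (TGN46), GOLM1 (GP73), GOLIM4 (GPP130) and GLG1 (MG-160) are 4 Golgi membrane proteins that are synthesized at the endoplasmic reticulum (ER). GOLGA1 (golgin-97), GOLGA2 (GM130), GOLGA3 (golgin-160), GOLGA4 (golgin-245), GOLGA5 (golgin-84) and GOLGB1 (giantin) are 6 golgins, long coiled-coil proteins translated by free ribosomes in the cytosol. All 10 passed the filter on low counts in every comparison.

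All 18 libraries came from this line, in 6 groups of 3, so the control cells held the transgene too. Doxycycline was left out (No ERN2) or given over 24 hours at 10 ng/mL (Low ERN2) or 100 ng/mL (High ERN2), and cells also received 200 nM thapsigargin or an equal volume of DMSO (vehicle) for 3 hours. Thapsigargin empties the ER of calcium and causes ER stress. Every induced group had doxycycline and every uninduced group had none, so the effects of doxycycline and of ERN2 cannot be told apart. The sources used here do not say whether replicates were separate cultures, so p-values measure the spread between these libraries, which may be technical.

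ERN2 (IRE1β) is an ER membrane kinase and endoribonuclease, the relative of ERN1 (IRE1α) found in mucus-secreting epithelia. Enzymes of this family splice XBP1 mRNA and can also cut other mRNAs that are being translated at the ER membrane, a process called regulated IRE1-dependent decay. Transcripts of proteins with a signal sequence or signal anchor are brought to that membrane during translation, whereas most golgins reach the Golgi after synthesis, through a GRIP domain, a partner protein or a membrane segment at the carboxy terminus.

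Libraries held 14876416 to 24652240 counts, and levels are given as CPM, read counts relative to the TMM-adjusted library total. ERN2 averaged 7.92 ± 1.30, 35.7 ± 18.4 and 266 ± 36.1 CPM (mean ± SD, n = 3) at No, Low and High ERN2 in vehicle. In thapsigargin it averaged 12.4 ± 1.98, 66.0 ± 40.7 and 201 ± 57.2 CPM. Uninduced libraries thus held ERN2 reads too, so No ERN2 and "without ERN2" here mean without doxycycline, not an absence of ERN2 transcript. Replicate 3 had the most ERN2 at the low dose, 56.8 CPM in vehicle and 111 CPM in thapsigargin. Replicate 1 had the most at the high dose in thapsigargin, 267 CPM. DDIT3, a stress-induced transcription factor, stood at 10.1 ± 1.31 CPM in uninduced vehicle cells and at 157 ± 1.42 CPM after thapsigargin. In vehicle, XBP1 averaged 78.0 ± 1.22 CPM without ERN2 and 159 ± 9.85 CPM at High ERN2, HSPA5, the ER chaperone BiP, 510 ± 34.2 and 915 ± 61.5 CPM, and ERN1 7.77 ± 0.627 and 4.77 ± 0.737 CPM. In thapsigargin these genes were lower at High ERN2 than without it, XBP1 at 209 against 488 CPM (log2 fold change -1.16, adjusted p = 3.65e-05, edgeR), HSPA5 at 2033 against 3687 CPM (-0.80, 0.00688), ERN1 at 5.53 against 16.1 CPM (-1.48, 0.000205) and DDIT3 at 92.1 against 157 CPM (-0.71, 0.00506). The extraction label speaks of colon crypt cells, but all 6 HEK293 markers exceeded 1 CPM, while 2 of 11 colon epithelium markers (EPCAM and CDX2) did so and TFF3 had no count in any library. The summed colon markers spanned 12.8 to 27.95 CPM over all libraries, and the HEK293 markers 1555 to 2617 CPM. Most of the HEK293 sum was VIM, at 1358 to 2360 CPM. The HEK293 marker PAX2, at 1.16 to 4.42 CPM, lay below the colon marker EPCAM, at 6.93 to 22.6 CPM.

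The 4 membrane proteins and the 6 golgins differed at the amino terminus of the encoded protein. They were chosen by where the protein is made, so a difference there was built into the choice. The mean hydropathy of the best 19-residue window in the first 60 residues was 2.44 for TGOLN2, 2.42 for GOLM1, 1.95 for GOLIM4 and 1.42 for GLG1. The golgins ran from -0.73 (GOLGA2) to 0.51 (GOLGB1). A value over 1.6 was found in 14.7% of the 13086 genes tested that had a coding sequence. GLG1 was the membrane protein that did not reach 1.6. At the carboxy terminus the classes were mixed, since TGOLN2 (2.16) and GLG1 (2.55) passed 1.6 alongside GOLGA5 (2.75) and GOLGB1 (2.60), the golgins with a membrane segment in the tail. A carboxy-terminal value over 1.6 was found in 7.99% of genes.

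Enzymes of the IRE1 family favour a CNGCAGN loop held by a short stem, and so the coding sequences were searched for that loop of 7 bases closed by 4 paired bases, with G-U pairs allowed. TGOLN2 had 2 matches and GOLM1 had 1, whereas GOLIM4 and GLG1 had 0. Among the golgins, GOLGA2 and GOLGB1 had 2 each, GOLGA3 and GOLGA4 had 1 each, and GOLGA1 and GOLGA5 had 0. A match was present in 8.61% of all genes tested. Among genes of like coding length the share was 6.81% for TGOLN2, 6.51% for GOLM1, 12.4% for GOLGA2, 18.5% for GOLGA3, 29.1% for GOLGA4 and 33.3% for GOLGB1. Matches thus occurred in both classes. Those of the membrane proteins, and 1 of the matches in GOLGA2 for comparison, are shown 5′ to 3′ on the coding strand from GENCODE release 29 transcripts (GRCh38), with the loop in capitals; each lies within a single coding exon on the minus strand.
TGOLN2 (chr2:85327541-85327561): tccggagCCGCAGActccaaa
TGOLN2 (chr2:85327331-85327351): tccggagCTGCAGActccaaa
GOLM1 (chr9:86036457-86036477): ctgcaggCAGCAGGcctgcca
GOLGA2 (chr9:128257246-128257266): gcctcgcCGGCAGTgtggagc
The shorter word CTGCAG, which lacks the requirement for a stem, was in the coding sequence of all 10 members and of 70.5% of genes, with 3 copies in TGOLN2, 4 in GOLM1, 4 in GOLIM4, 5 in GLG1 and 2 (GOLGA4) to 25 (GOLGA3) in the golgins. Such matches describe letters and are not measured cleavage sites.

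In uninduced vehicle cells, levels per kilobase of transcript put GOLM1 highest, at 75.3 ± 2.41 CPM per kilobase. GOLIM4 (40.0 ± 1.39), TGOLN2 (35.7 ± 2.24) and GLG1 (28.7 ± 1.22) followed, and every golgin lay below them. GOLGA2 (24.1 ± 0.618) and GOLGA3 (22.5 ± 1.89) were within their spread of each other. GOLGB1 (17.8 ± 1.01), GOLGA5 (17.8 ± 0.522) and GOLGA4 (17.6 ± 3.37) could not be ordered, and GOLGA1 was lowest at 8.98 ± 0.479 CPM per kilobase.

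The first question was whether the transcripts differed between induced and uninduced cells in the absence of added stress. At the high dose all 4 membrane proteins fell, GOLM1 by 4.79-fold, TGOLN2 by 3.79-fold, GOLIM4 by 1.86-fold and GLG1 by 1.73-fold, and none of the 6 golgins passed the adjusted p threshold of 0.01. Over all genes tested, 7.49% were called lower in this comparison.

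GOLM1, a type II membrane protein that cycles between the cis-Golgi and endosomes, measured 219, 233 and 230 CPM in the uninduced libraries and 43.6, 47.8 and 51.1 CPM at High ERN2. The groups were far apart, with a log2 fold change of -2.26 (SE 0.108, adjusted p = 1.06e-07, edgeR quasi-likelihood test). TGOLN2, which shuttles between the trans-Golgi network and the cell surface, measured 215, 241 and 238 CPM without ERN2 and 60.8, 57.9 and 64.4 CPM with it. Its log2 fold change was -1.92 (SE 0.106, adjusted p = 2.19e-07), and no high-dose library came near the uninduced ones.

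GOLIM4, which cycles through the early Golgi and endosomes, measured 168, 177 and 180 CPM without ERN2 and 90.6, 89.8 and 101 CPM at the high dose (log2 fold change -0.90, SE 0.102, adjusted p = 5.44e-05). GLG1, a sialoglycoprotein of the Golgi membrane that binds fibroblast growth factors and E-selectin, measured 248, 228 and 236 CPM without ERN2 and 138, 141 and 134 CPM with it (log2 fold change -0.79, SE 0.0965, adjusted p = 0.000101). Both thus kept over 50% of their uninduced level, namely 53.7% for GOLIM4 and 57.9% for GLG1, against 26.4% for TGOLN2 and 20.9% for GOLM1. All 4 were still called whichever of the 6 libraries was omitted.

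Log2 fold changes of the golgins at the high dose ran from -0.15 (GOLGA4) to 0.45 (GOLGA2). GOLGA2, a cis-Golgi matrix protein that tethers vesicles, measured 106, 100 and 102 CPM without ERN2 and 137, 152 and 131 CPM at High ERN2. Its groups did not overlap, and at 0.45 (SE 0.104) its adjusted p was 0.0113, just short of the threshold. GOLGA2 was called higher with DESeq2, with RLE size factors, with library totals and with no filter on low counts. It was not called with all 6 groups in 1 fit, with the replicate block (adjusted p = 0.0712) or when any library was left out. GOLGA3, involved in Golgi positioning, measured 195, 186 and 218 CPM without ERN2 and 241, 260 and 224 CPM with it (log2 fold change 0.28, SE 0.107, adjusted p = 0.108). GOLGA1, a GRIP-domain tether of the trans-Golgi network, measured 45.8, 41.5 and 42.2 CPM and then 52.1, 47.7 and 50.0 CPM (0.21, SE 0.112, adjusted p = 0.238). For both, as for GOLGA2, no high-dose library overlapped the uninduced ones. With 3 libraries against 3, such a separation has an exact permutation p of 0.1 at the least. Of all 14444 genes tested, 4237 had an unadjusted edgeR p under 0.05 here, and the share of genes with separate groups was not counted.

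The golgins with a hydrophobic tail were among those not called. GOLGA5, a tether for vesicles that move within the Golgi stack, measured 51.2, 54.3 and 52.7 CPM without ERN2 and 71.2, 52.2 and 61.0 CPM with it (log2 fold change 0.22, SE 0.128, adjusted p = 0.275). GOLGB1, the largest golgin by length, measured 192, 212 and 193 CPM and then 259, 163 and 190 CPM (0.04, SE 0.149, adjusted p = 0.892). GOLGA4, a GRIP-domain tether, had overlapping groups as well, at 113, 165 and 132 CPM and then 151, 88.6 and 131 CPM (-0.15, SE 0.183, adjusted p = 0.616). The standard error of GOLGA4 was the largest of the 10 members in this comparison.

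**Figure D1:**
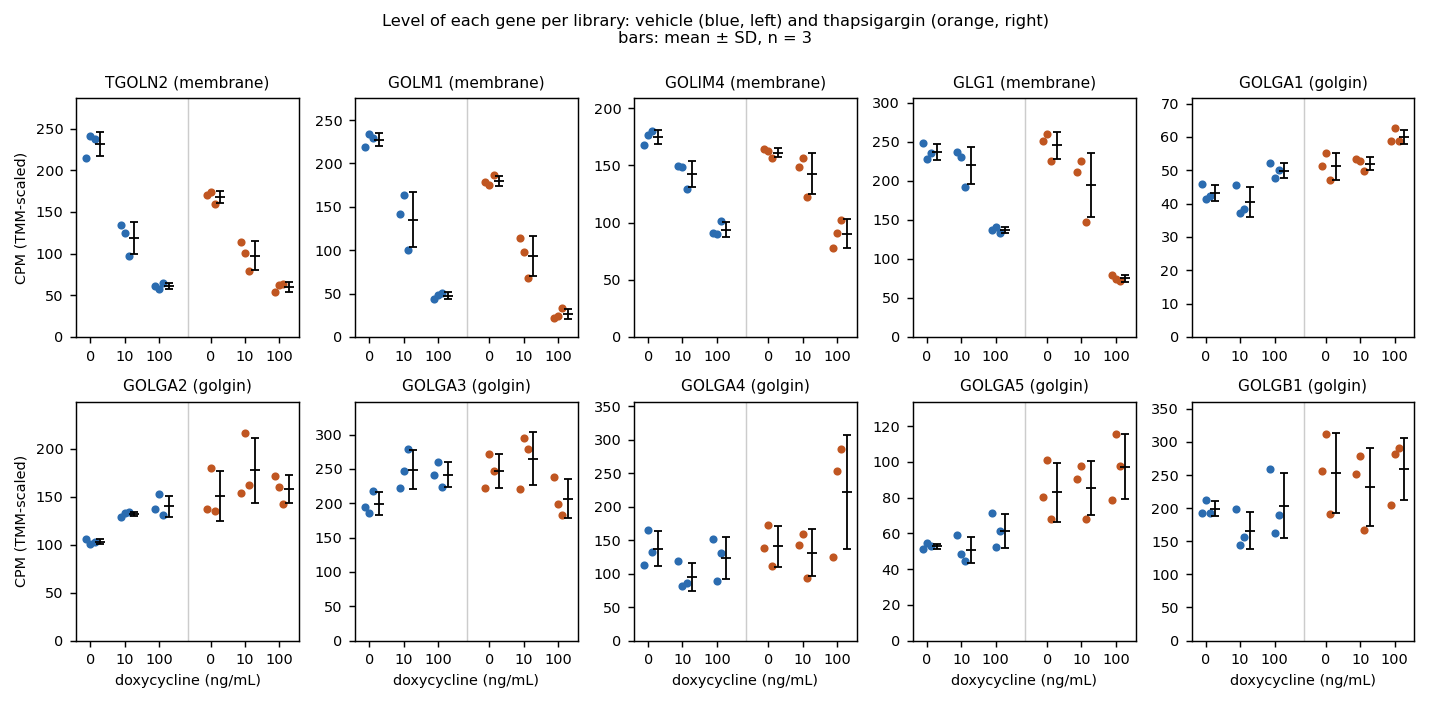
CPM of each of the 10 genes in each library (points) with the group mean and SD (black, n = 3), against doxycycline dose, with vehicle in blue and thapsigargin in orange. All 4 membrane proteins sit lower at 100 than at 0 ng/mL in every library of both treatments, for example 43.6 to 51.1 against 219 to 233 CPM for GOLM1 in vehicle, whereas the golgin groups overlap or lie higher in vehicle.

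At the low dose in vehicle, TGOLN2 was the member that passed the threshold. It fell by 1.95-fold, from 215, 241 and 238 CPM to 134, 125 and 96.7 CPM (log2 fold change -0.96, SE 0.127, adjusted p = 0.00542). Genes called lower made up 0.0552% of those tested, 8 in all. The call was lost without No ERN2 control replicate 1 (adjusted p = 0.0481), replicate 2 (0.0145) or replicate 3 (0.0282), or Low ERN2 control replicate 2 (0.0240), while its log2 fold change stayed between -1.06 and -0.84. Each of these fits called 0.0% of all genes in either direction, so the loss was not particular to TGOLN2.

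GOLM1 measured 141, 163 and 101 CPM at the low dose, with a log2 fold change of -0.75 (SE 0.149, adjusted p = 0.0375). GOLIM4 gave -0.30 (SE 0.103, adjusted p = 0.0946) and GLG1 gave -0.11 (SE 0.107, adjusted p = 0.498). Replicate 3, the low-dose library with the most ERN2, had the lowest CPM of the group for all 4 membrane proteins. The high-dose libraries with the most ERN2 had the lowest TGOLN2 and GOLIM4 but the highest GLG1 of their groups, 141 CPM in replicate 2 in vehicle (308 CPM of ERN2) and 79.7 CPM in replicate 1 in thapsigargin. The golgins ranged from -0.52 (GOLGA4, adjusted p = 0.0846) to 0.36 (GOLGA2, adjusted p = 0.0771), and none was called. Without Low ERN2 control replicate 1, 6 members were called: TGOLN2 (-1.06), GOLM1 (-0.78), GOLGA4 (-0.72) and GOLGB1 (-0.41) lower, and GOLGA2 (0.38) and GOLGA3 (0.40) higher. In that fit 2743 of 14616 genes, 18.8%, were called in either direction, against 28 of 14497 with all 6 libraries.

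Between the low and the high dose, GOLM1 fell by 2.82-fold (log2 fold change -1.50, SE 0.176, adjusted p = 0.00252), TGOLN2 by 1.93-fold (-0.95, SE 0.144, adjusted p = 0.00477) and GLG1 by 1.59-fold (-0.67, SE 0.115, adjusted p = 0.00786). Of all genes, 2.43% were called lower here. GOLIM4 had a log2 fold change of -0.59 (SE 0.116, adjusted p = 0.0147) and was called lower with DESeq2, with no filter, with all 6 groups and with the replicate block. The golgins ran from -0.03 (GOLGA3) to 0.39 (GOLGA4) with none called. GLG1 differed little at the low dose and by more at the high dose, while the decrease of TGOLN2 was spread over both steps. The count of 3 called members went to 0 without Low ERN2 control replicate 2 (0.0611% of all genes called in either direction), High ERN2 control replicate 1 (0.143%) or High ERN2 control replicate 3 (0.0%). It went to 2 without High ERN2 control replicate 2 (2.64%), and the share with all libraries was 2.45%.

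**Figure D2:**
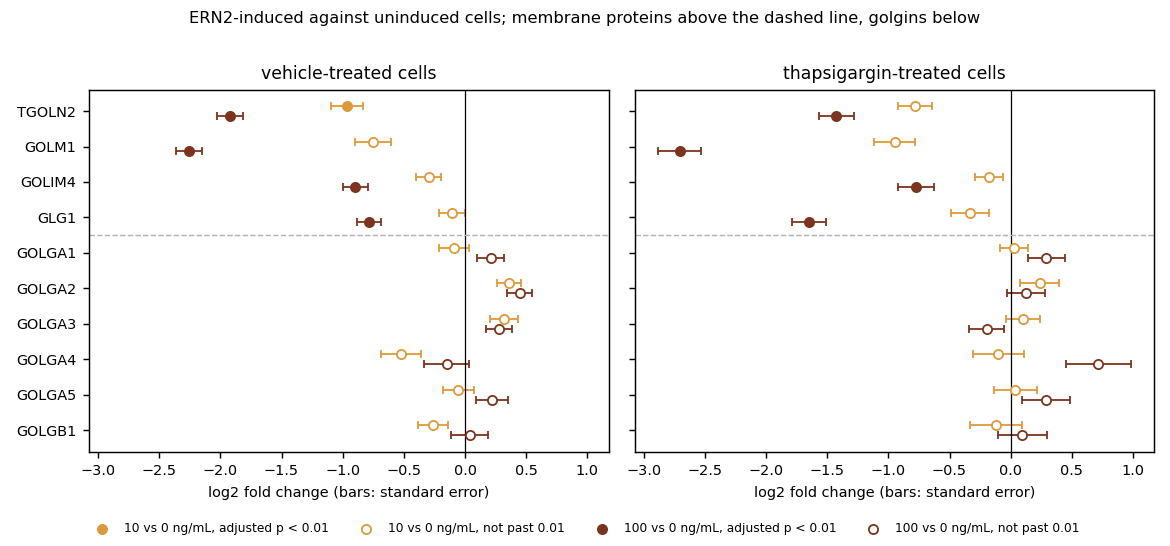
Log2 fold change (points) and standard error (bars) of each gene at 10 and 100 ng/mL against 0 ng/mL doxycycline, in vehicle (left) and thapsigargin (right), with filled points for adjusted p under 0.01. The 4 membrane proteins at 100 ng/mL lie at -0.79 to -2.26 in vehicle and -0.77 to -2.71 in thapsigargin, all filled, and no golgin point is filled.

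The same comparison was made in cells that had 3 hours of thapsigargin. At High ERN2 the 4 membrane proteins again fell, GOLM1 by 6.53-fold, GLG1 by 3.13-fold, TGOLN2 by 2.69-fold and GOLIM4 by 1.71-fold. The share of all genes called lower was 9.0%. GOLM1 measured 178, 176 and 187 CPM without ERN2 and 22.2, 24.0 and 33.0 CPM at the high dose (log2 fold change -2.71, SE 0.173, adjusted p = 1.39e-06). GLG1 measured 251, 260 and 226 CPM and then 79.7, 74.9 and 71.1 CPM (-1.65, SE 0.139, adjusted p = 8.83e-06). Both were well separated from the uninduced libraries.

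TGOLN2 measured 170, 174 and 160 CPM without ERN2 and 53.5, 62.5 and 63.6 CPM with it (log2 fold change -1.43, SE 0.145, adjusted p = 2.87e-05). GOLIM4 measured 164, 163 and 157 CPM and then 77.7, 90.7 and 103 CPM (-0.77, SE 0.147, adjusted p = 0.00254). The GOLIM4 call was lost without No ERN2 stress replicate 1 (adjusted p = 0.0197) or replicate 2 (0.0153), or High ERN2 stress replicate 2 (0.0218). Those fits called 6.01%, 6.63% and 5.23% of all genes in either direction, against 10.5% with all libraries. The golgins ran from -0.20 (GOLGA3, adjusted p = 0.361) to 0.72 (GOLGA4, adjusted p = 0.0749), and none was called. GOLGA4 measured 138, 172 and 112 CPM without ERN2 and 125, 254 and 285 CPM at High ERN2. Its lowest value there was in replicate 1, the library with the most ERN2, and without that library GOLGA4 was called higher at 1.02 (adjusted p = 4.88e-05), as 27.2% of all genes were called in either direction.

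At the low dose in thapsigargin no member was called, and 0.0% of genes passed in either direction by edgeR, although 612 of 14509 had an unadjusted p under 0.05 and DESeq2 called 39. GOLM1 measured 114, 97.7 and 68.1 CPM (log2 fold change -0.95, SE 0.167, adjusted p = 0.292) and TGOLN2 113.9, 100 and 78.8 CPM (-0.78, SE 0.139, adjusted p = 0.292). Same-numbered libraries deviated together in this comparison, and with the replicate number as a block 4 members passed: GOLM1 at -0.97 (adjusted p = 1.04e-06), TGOLN2 at -0.79 (3.68e-07) and GLG1 at -0.35 (0.00121) lower, and GOLGA2 at 0.23 (0.00982) higher. The blocked fit called 3.89% of all genes in either direction. GOLIM4 had -0.18 (adjusted p = 0.0631) in the blocked fit.

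From the low to the high dose in thapsigargin, GOLM1 (log2 fold change -1.76, SE 0.220, adjusted p = 0.000561) and GLG1 (-1.31, SE 0.173, adjusted p = 0.000660) fell, beside 5.32% of all genes called lower. TGOLN2 had -0.65 (adjusted p = 0.0269) and GOLIM4 -0.60 (adjusted p = 0.0304). The golgins ran from -0.30 (GOLGA3) to 0.82 (GOLGA4), with none called. Both calls were lost without High ERN2 stress replicate 2 (adjusted p = 0.0129 for GOLM1 and 0.0138 for GLG1), in a fit that called 0.285% of all genes. Without High ERN2 stress replicate 1 GOLGA4 was called higher as well, at 1.13 (adjusted p = 0.00116), in a fit that called 18.4% of all genes. GOLGA4 was also called higher with no filter on low counts (0.86, adjusted p = 0.00235), TGOLN2 was called lower with DESeq2, and TGOLN2 and GOLIM4 were called lower with all 6 groups in 1 fit.

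The summed CPM of the membrane proteins was divided by that of the golgins in each library, as a description without a test. The ratio was 1.21, 1.16 and 1.19 in uninduced vehicle cells, 0.856, 0.966 and 0.706 at Low ERN2 and 0.365, 0.441 and 0.446 at High ERN2. In thapsigargin it was 0.862, 0.707 and 0.911 without ERN2, 0.645, 0.527 and 0.509 at the low dose and 0.266, 0.235 and 0.256 at the high dose. The 3 doses did not overlap in either treatment. The numerator moved from 871 ± 18.2 to 340 ± 9.36 CPM between No and High ERN2 in vehicle, while the golgin sum was 734 ± 28.6 and 821 ± 79.5 CPM (SD, n = 3).

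**Figure D3:**
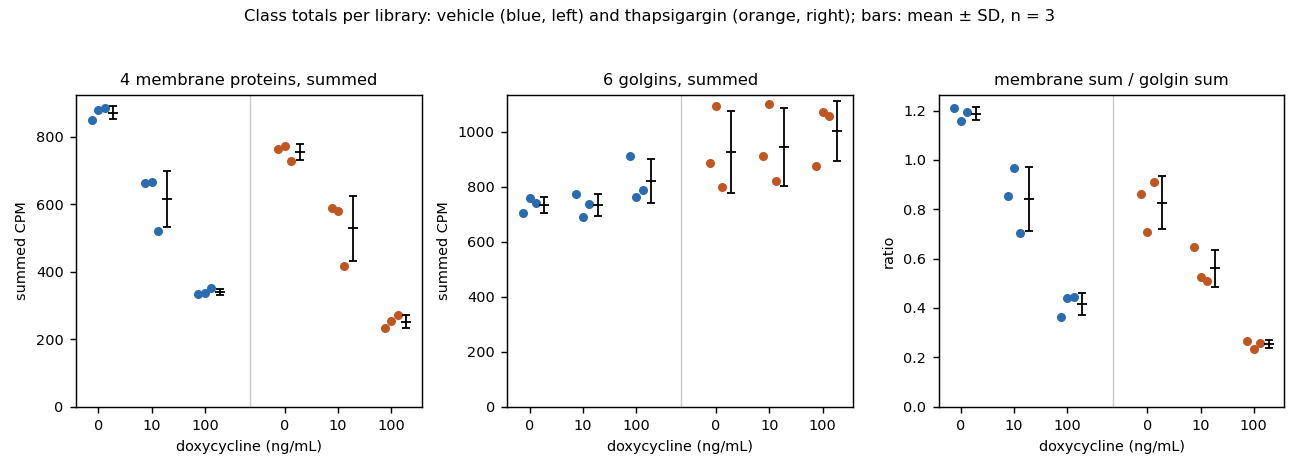
Summed CPM of the 4 membrane proteins (left), summed CPM of the 6 golgins (middle) and their ratio (right) in each library, with the group mean and SD (n = 3), against doxycycline dose for vehicle (blue) and thapsigargin (orange). The mean ratio steps from 1.19 to 0.842 and 0.417 in vehicle and from 0.827 to 0.560 and 0.252 in thapsigargin.

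Thapsigargin alone was compared with vehicle at each dose. Without ERN2, TGOLN2 fell by 1.37-fold (log2 fold change -0.45, SE 0.0997, adjusted p = 0.00621), beside 4.74% of genes called lower. GOLGA2 rose by 1.48-fold (0.56, SE 0.123, adjusted p = 0.00575), from 106, 100 and 102 CPM to 137, 180 and 134 CPM. GOLGA5 rose by 1.59-fold (0.67, SE 0.139, adjusted p = 0.00449), from 51.2, 54.3 and 52.7 CPM to 80.1, 101 and 68.2 CPM. Genes called higher made up 6.45%. GOLM1 had -0.33 (adjusted p = 0.0249), GOLIM4 -0.11 (0.460) and GLG1 0.06, and the other golgins ran from 0.05 (GOLGA4) to 0.36 (GOLGB1). No call of the 3 was stable to leaving out a library. None was left without No ERN2 control replicate 1 (5.02% of all genes called in either direction) or 3 (6.32%) or No ERN2 stress replicate 2 (6.84%). A single call was left without No ERN2 control replicate 2 (7.8%) or No ERN2 stress replicate 1 (6.22%). Without No ERN2 stress replicate 3, 4 were called (13.0%), and the share with all libraries was 11.2%.

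With ERN2 induced, no member passed the threshold for thapsigargin in the fit without a replicate block. At Low ERN2, where 1.45% of genes were called in either direction, log2 fold changes ran from -0.53 (GOLM1, adjusted p = 0.152) to 0.76 (GOLGA5, adjusted p = 0.0221). At High ERN2, where 0.201% of genes were called, GLG1 went from 138, 141 and 134 CPM to 79.7, 74.9 and 71.1 CPM (-0.82, SE 0.123, adjusted p = 0.0118) and GOLM1 from 43.6, 47.8 and 51.1 CPM to 22.2, 24.0 and 33.0 CPM (-0.80, SE 0.180, adjusted p = 0.0446). TGOLN2 had 0.02 (adjusted p = 0.946) and GOLIM4 -0.01 (adjusted p = 0.974). Without High ERN2 stress replicate 1, 4 members were called at High ERN2, among them GLG1 lower at -0.88 (adjusted p = 0.000493); 17.6% of all genes were called in that fit. Without Low ERN2 stress replicate 3, 1 member was called at Low ERN2, beside 3.32% of genes. With the replicate number as a block, 7 members passed at Low ERN2, 2 membrane proteins lower and 5 golgins higher, beside 24.8% of all genes. At High ERN2 the blocked fit called 0 members and 0.0277% of all genes.

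Whether the thapsigargin response itself differed with ERN2 was tested as an interaction. No member passed, at the low dose (0.0% of genes called in either direction by edgeR, with 664 of 14857 at an unadjusted p under 0.05 and 3 by DESeq2) or at the high dose (0.0406% called). The largest difference relative to its error was that of GLG1 at the high dose, where the thapsigargin response was lower by 0.80 on the log2 scale than without ERN2 (SE 0.139, adjusted p = 0.0211). It was called with DESeq2, with library totals, with no filter on low counts and without High ERN2 stress replicate 1. TGOLN2 had the opposite sign, at 0.55 (SE 0.160, adjusted p = 0.0835). On simulated counts for this design the test recovered 15% of 2-fold interactions, so most changes of that size could have been missed.

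**Figure D4:**
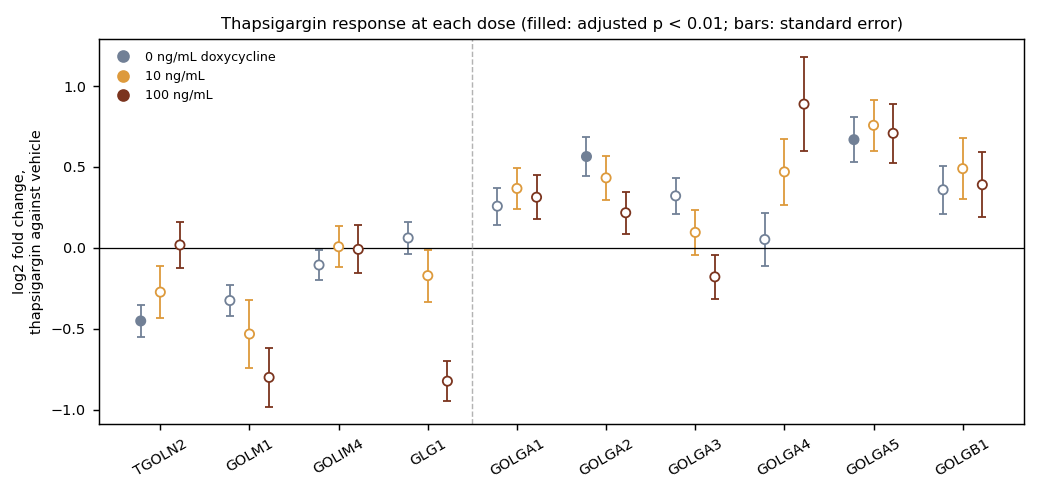
Log2 fold change of thapsigargin against vehicle (points) with standard error (bars) for each gene at 0 (grey), 10 (yellow) and 100 (brown) ng/mL doxycycline, with filled points for adjusted p under 0.01. GLG1 goes from 0.06 to -0.82 and TGOLN2 from -0.45 to 0.02 between 0 and 100 ng/mL, whereas GOLGA5 lies at 0.67 to 0.76 throughout.

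Promoter letters were examined because some golgins were higher in thapsigargin. In the 250 bases before RefSeq starts (GRCh38.p14), 12 promoters matched 9 members; GOLGA4 was not matched. On either strand, TGACGTGG, the core bound by XBP1 and ATF6, was found in 0.72% of 15983 promoters and among the members in GOLGA1 and GOLGA5. The overlapping word ACGTGGC was in 3.62% of promoters and in the same members. CCACG, which overlaps both, was in 42.1% of promoters and in 8 of the 12 member promoters. The stretches with TGACGTGG or its reverse complement in capitals, neither of which overlaps a GENCODE exon, read 5′ to 3′ on the strand of the gene as follows.
GOLGA1 (chr9:124941239-124941286, minus strand): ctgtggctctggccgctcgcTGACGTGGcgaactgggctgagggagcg
GOLGA5 (chr14:92794106-92794153, plus strand): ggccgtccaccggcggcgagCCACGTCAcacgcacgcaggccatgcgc
GOLGA5 was called higher in thapsigargin without ERN2, and GOLGA1 had 0.26 (SE 0.115, adjusted p = 0.124) there. GOLGA2, also called higher, had 3 CCACG words and neither longer word. These matches describe letters and are not measured binding, and their relation to the changes in thapsigargin was not tested.

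Other Golgi genes were counted by class of protein in High against No ERN2, vehicle. Over all genes tested, 7.49% were called lower and 0.838% higher there. Of 60 Golgi enzymes, most of them single-pass type II glycosyltransferases and related enzymes, 25 were lower and 0 higher, and the median log2 fold change was -0.53 against -0.01 for all genes. Among them GALNT10 (-2.16, SE 0.130) and GALNT11 (-1.70, SE 0.140) start mucin-type O-glycans, and B4GALT6 (-1.55, SE 0.148) makes lactosylceramide. Of 32 multi-pass Golgi membrane proteins tested, 9 were lower and 1 higher (median -0.31). The lower ones included TMEM165, an ion transporter needed for glycosylation (-2.27, SE 0.121), ATP7A, a copper pump (-1.39, SE 0.150), and SLC35E1, a member of the nucleotide-sugar transporter family (-1.38, SE 0.119). TVP23C was higher (0.98, SE 0.203).

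Of 38 further Golgi coiled-coil, tether and stacking proteins made in the cytosol, 0 were lower and 1 was higher, COG3, a subunit of the conserved oligomeric Golgi complex (0.72, SE 0.133, adjusted p = 0.00245). Their median was 0.09. In thapsigargin the same contrast gave 29 lower and 1 higher of the enzymes (median -0.79), 16 lower and 0 higher of the multi-pass proteins (median -0.80), and 0 lower and 0 higher of the cytosol-made proteins (median 0.12). The shares of all genes in that contrast were 9.0% lower and 1.53% higher. For thapsigargin against vehicle without ERN2, 9 cytosol-made proteins were higher and 0 lower, 11 enzymes were lower and 0 higher, and of the multi-pass proteins 4 were higher and 1 lower (median 0.07). Over all genes, 4.74% were called lower and 6.45% higher in that comparison.

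**Figure D5:**
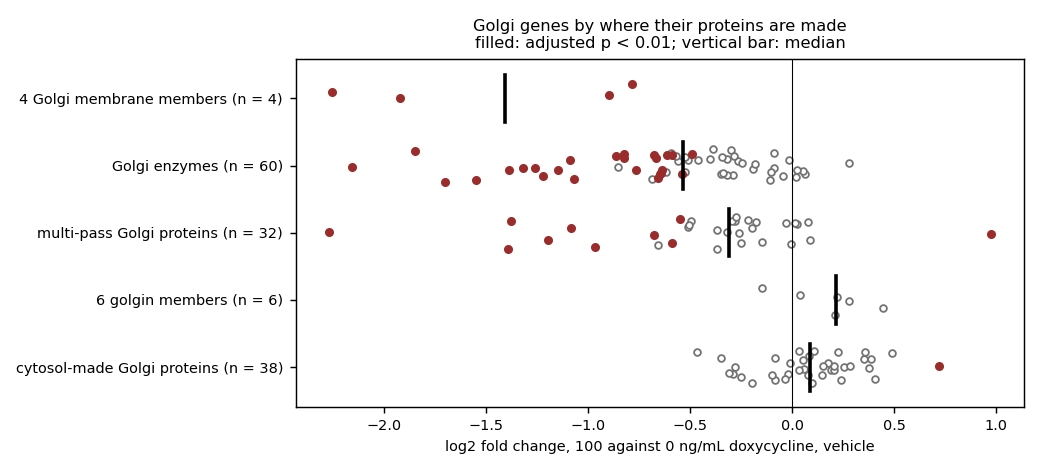
Log2 fold change at 100 against 0 ng/mL doxycycline in vehicle for each gene of 5 lists (points, filled where adjusted p is under 0.01) with the list median (vertical bar). The medians are -1.41 for the 4 membrane members, -0.53 for enzymes, -0.31 for multi-pass proteins, 0.22 for the 6 golgin members and 0.09 for the other cytosol-made proteins.

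Over the 18 libraries, the log2 CPM of the membrane proteins moved together, with Pearson's r between 0.83 and 0.96 for their 6 pairs. Pairs of golgins ranged from -0.54 to 0.90, highest for GOLGA1 with GOLGA5, and pairs across the classes from -0.66 to 0.25. These libraries share the dose and treatment groups, so r describes the groups as much as the genes. Of 15013 genes compared, those most like TGOLN2 were ITGB1 (r = 0.983), TMEM165 (0.982) and RCN2 (0.981). Those most like GOLM1 were PRDX4 (0.993), M6PR (0.991) and GGCX (0.990). Those most like GOLIM4 were EIF2AK1 (0.990), TXNDC12 (0.987) and CREG1 (0.980), and those most like GLG1 were TCF19 (0.985), SLC23A2 (0.984) and ACVR1B (0.983).

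Some golgin counts may include reads of other genes. By gene span, GOLGA1 overlaps SCAI on the same strand by 5885 bases, GOLGA3 overlaps CHFR on the same strand by 6672 bases, and GOLGA2 overlaps SWI5 on the opposite strand by 617 bases. The table also holds 37 other rows named GOLGA, of which 5 are GOLGA2 pseudogenes, and how reads shared with them were assigned is not given in the sources used here.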

How the data were processed

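RNA from 18 libraries of HEK293doxERN2 cells was sequenced by the authors from KAPA stranded mRNA libraries. Per the submitters' processing notes, reads were aligned to hg38 with STAR and compared with DESeq2; versions, the annotation and the strand setting of counting are not given in the sources used here. The deposited values are raw read counts per gene, not normalized. Groups came from the sample labels, and columns were matched to samples through them.

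Counts were tested with edgeR 4.0.16 (R 4.3.3; TMM, filterByExpr at a minimum count of 10, quasi-likelihood test) fitted to the compared groups; p-values were adjusted by Benjamini-Hochberg across every tested gene and called at 0.01. DESeq2 1.42.0, RLE size factors, library totals, no filter, all 6 groups in 1 fit, a replicate block and leaving out each library were alternatives. CPM values are TMM-scaled, and express a share of each library. With 3 libraries against 3, an exact permutation test of single values could not go below p = 0.1 and was not used. On simulated counts for High against No ERN2 in vehicle, 82.8% of 2-fold changes were recovered, with 1.8% false calls. Here and for the interaction, counts were simulated for each gene on its own. They lack deviations that genes of a library share, so rates in the real libraries may differ. No pair of replicates agreed within sampling noise (lowest chi-square 7.33 per degree of freedom).

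Replicate numbers were taken from the labels. Deviations from group means correlated above 0.1 for every same-numbered pair, the bar set for pairing, only in Low against No ERN2 under thapsigargin (r 0.51 to 0.65), so blocked values stand beside that result. Pairs in other comparisons were mixed, and blocked counts are also given for thapsigargin with ERN2 induced.

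Hydropathy and stem-loops came from GENCODE 29 transcripts (1 per gene), promoters from RefSeq. The members and gene lists were chosen with earlier results of these data known. Named were all members, the check genes, up to 3 genes per list and direction with the smallest p among those called in High against No ERN2 in vehicle, and the 3 genes most correlated with each membrane member. Intervals are standard errors of the fit or SD over 3 libraries.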

Additional observations from a re-analysis of the deposited data

How the results depend on the processing

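Every call at High against No ERN2 in vehicle, 4 members lower, was made under all alternatives, with 5 members called under 4 of them; in thapsigargin 4 to 5 were called, and 3 to 5 when a library was left out. Other counts of called members moved, and the share of all genes called in either direction, given in parentheses, moved too. For Low against No ERN2 in vehicle the count of 1 (0.193%) became 2 with DESeq2 (2.63%), with no filter (3.14%) and with the replicate block (0.855%), and 0 to 6 leaving out a library (0.0% to 18.8%). For High against Low ERN2 in vehicle 3 (2.45%) became 4 with DESeq2 (5.51%), no filter (3.2%), all 6 groups (4.18%) or the replicate block (8.41%) and 2 with library totals (1.99%), and 0 to 3 leaving out a library (0.0% to 3.37%). For Low against No ERN2 in thapsigargin 0 (0.0%) became 2 with DESeq2 (0.269%) and 4 with the replicate block (3.89%). For High against Low in thapsigargin 2 (5.55%) became 4 with all 6 groups in 1 fit (13.7%) and 3 with DESeq2 (11.4%) or no filter (8.31%), and 0 to 3 leaving out a library (0.285% to 18.4%). For thapsigargin without ERN2, 3 (11.2%) became 1 with all 6 groups (8.47%), 4 with DESeq2 (16.2%) and 6 with the replicate block (24.8%), and 0 to 4 leaving out a library (5.02% to 13.0%). For thapsigargin at Low ERN2, 0 became 1 with DESeq2 (7.54%), with no filter (2.66%) and with all 6 groups (4.5%), 7 with the replicate block (24.8% of all genes called, against 1.45% without it), and 0 to 1 leaving out a library (0.188% to 3.32%). For thapsigargin at High ERN2, 0 (0.201%) became 3 with DESeq2 (5.07%), 1 with library totals (0.354%), 1 with no filter (1.51%), 2 with all 6 groups (6.26%), and 0 to 4 leaving out a library (0.0273% to 17.6%). For the interaction at High ERN2, 0 (0.0406%) became 1 with DESeq2 (2.31%), library totals (0.135%) or no filter (0.416%), and 0 to 1 leaving out a library (0.0134% to 8.6%). In comparisons other than Low against No ERN2 in thapsigargin, at least 1 same-numbered pair of libraries had a correlation of deviations of 0.1 or less, the bar set for pairing. Same-numbered pairs still averaged above 0 in some, with mean r 0.42 for thapsigargin at Low ERN2 and 0.35 for High against Low ERN2 in vehicle. They averaged below 0 in others, such as High against No ERN2 in vehicle (-0.20). Whether replicate numbers pair the libraries was not tested. For thapsigargin without ERN2 all 3 pairs were above 0, at 0.064 to 0.42. Genes called in Low against No ERN2 in vehicle numbered 28 in all, and 3 with all 6 groups to 623 with no filter. The causes were not tested.

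The log2 change of the membrane to golgin ratio from uninduced vehicle was -1.51 at High ERN2 in vehicle, and -1.71 per kilobase. From the same uninduced vehicle base, High ERN2 with thapsigargin had -2.24, against -2.44 per kilobase and -2.42 from the mean of log2 CPM. That value holds the dose and thapsigargin together, and thapsigargin without ERN2 had -0.53 on this base.

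Member values that changed sign were small, and none of them was called with all libraries in the edgeR fit. Leaving out a library took the log2 fold change across 0 in Low against No ERN2, vehicle (GOLGA5 from -0.18 to 0.026), High against No ERN2, vehicle (GOLGA4 from -0.32 to 0.050 and GOLGB1 from -0.17 to 0.18), High against Low ERN2, vehicle (GOLGA3 from -0.094 to 0.045), Low against No ERN2, thapsigargin (GOLGA4 from -0.25 to 0.10, GOLGB1 from -0.29 to 0.072, GOLGA1 from -0.031 to 0.086 and GOLGA5 from -0.082 to 0.21), High against No ERN2, thapsigargin (GOLGB1 from -0.087 to 0.29), High against Low ERN2, thapsigargin (GOLGA2 from -0.17 to 0.078), thapsigargin without ERN2 (GOLGA4 from -0.13 to 0.21), thapsigargin at Low ERN2 (GOLIM4 from -0.075 to 0.10), thapsigargin at High ERN2 (TGOLN2 from -0.033 to 0.080 and GOLIM4 from -0.12 to 0.075), the interaction at Low ERN2 (GOLGA2 from -0.29 to 0.029, GOLGA5 from -0.023 to 0.26 and GOLGB1 from -0.024 to 0.33) and the interaction at High ERN2 (GOLGA5 from -0.042 to 0.25 and GOLGB1 from -0.070 to 0.33). For GOLIM4 in thapsigargin at Low ERN2, the value was -0.00042 with DESeq2, -0.00046 with RLE size factors and -4.3e-05 with no filter. TGOLN2 in thapsigargin at High ERN2 was -0.059 with library totals and -0.028 with all 6 groups. For the interaction at High ERN2, library totals gave -0.0025 for GOLIM4, -0.037 for GOLGA1, -0.062 for GOLGA5 and -0.073 for GOLGB1, and all 6 groups gave -0.0011 for GOLGB1.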
